A study of Mus musculus with 2 samples.

Results

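The genes described here are 8 genes used as markers of peripheral glia, the Schwann cells of nerves and the sustentacular cells of the adrenal medulla: Sox10, Sox2, S100b, Mbp, Erbb3, Fabp7, Gfap and Cdh19. They were chosen by name: a row of the deposited gene tables was taken where its Ensembl identifier carries one of these symbols on GRCm38, which gave 8 of 43346 Ensembl genes, 1 row each. Polyadenylated RNA of whole adrenal gland was sequenced from 1 adult female C57BL/6J mouse sample aged 10 weeks, with no treatment and no altered gene named in the labels. The sample was measured as 2 technical replicate libraries. Replicate 2 was performed in 2015, after the first, and was set against replicate 1. All spreads are therefore technical, and library and date cannot be told apart.

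Schwann cells ensheathe the nerve fibres that enter the adrenal gland, and sustentacular cells wrap clusters of catecholamine-producing chromaffin cells in the medulla. Both come from the neural crest and depend on the transcription factor Sox10, and precursors on nerves give rise to many chromaffin cells in the mouse embryo. Neuregulin, made by axons, drives glial growth and survival through the receptor pair of Erbb3 and Erbb2. None of these genes is restricted to peripheral glia. S100b is also made by fat cells, Erbb3 by epithelia, and Mbp, Gfap and Fabp7 are best known from glia of the brain.

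The libraries held 17376660 rounded expected counts in replicate 2 and 28267651 in replicate 1. Genes of the mitochondrial genome took 10.6% of them in replicate 2 and 40.1% in replicate 1, so the counts left for nuclear genes, also without nuclear copies of mitochondrial genes, were 14716667 and 13260900. Markers of the labelled tissue were high. TPM, a level corrected for transcript length and library size, spanned 351 to 11133 over 6 cortex markers in replicate 2 and 6.61 to 2871 in replicate 1, led by the steroid genes Hsd3b1 and Star. Chromaffin markers, led by the granins Chgb and Chga, spanned 10.1 to 1854 TPM over 8 genes in replicate 2 and 0 to 303 TPM in replicate 1, where Pnmt, the enzyme that makes adrenaline, was listed at 0.

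The members differ widely in base composition, and the difference between the libraries followed base composition across all genes, so the first 72 coding bases of 4 members are shown with G and C in capitals. They come from GENCODE M21 transcripts on GRCm38. Sox10 lies at chr15:79163645-79163716 on the minus strand, S100b at chr10:76257035-76257106 on the plus strand, Fabp7 at chr10:57785009-57785080 on the plus strand and Cdh19 at chr1:110954689-110954760 on the minus strand. All 4 stretches are exonic.
Sox10: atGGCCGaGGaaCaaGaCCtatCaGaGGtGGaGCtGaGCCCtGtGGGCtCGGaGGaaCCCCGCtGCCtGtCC
S100b: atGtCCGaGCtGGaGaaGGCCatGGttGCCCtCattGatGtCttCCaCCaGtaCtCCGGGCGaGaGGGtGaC
Fabp7: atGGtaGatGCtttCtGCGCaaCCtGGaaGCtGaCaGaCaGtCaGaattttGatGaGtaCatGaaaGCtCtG
Cdh19: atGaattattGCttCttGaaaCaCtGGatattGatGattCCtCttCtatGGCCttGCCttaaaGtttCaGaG
Capitals make up 63.9% of the stretch of Sox10, 58.3% of that of S100b, 44.4% of that of Fabp7 and 36.1% of that of Cdh19. The first 72 coding bases of Gfap, Sox2 and Erbb3, not shown, had 68.1%, 66.7% and 61.1%. The stretches thus do not keep the order of whole transcripts. Over whole annotated transcripts the GC content was 62.7% for Sox10, 54.5% for Mbp, 53.9% for Gfap, 51.2% for Erbb3, 50.5% for Sox2, 48.3% for S100b, 42.0% for Fabp7 and 37.7% for Cdh19.

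All 8 genes were weakly expressed. Their TPM summed to 18.3 in replicate 2 and 4.5 in replicate 1, and their counts to 624 and 501. Rescaled over nuclear genes, the sums were 29.7 and 25.7 TPM. The cortex marker list summed to 1451 times the TPM of the members in replicate 2 and 1602 times in replicate 1, and the chromaffin list to 248 and 79.2 times. In a whole gland, fewer glial cells and less RNA per glial cell cannot be told apart. A TPM of at least 1 was reached by 6 of 8 members in replicate 2 and by Cdh19 alone in replicate 1. With TPM rescaled over nuclear genes, 5 of 8 reached 1 in both libraries.

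**Figure D1:**
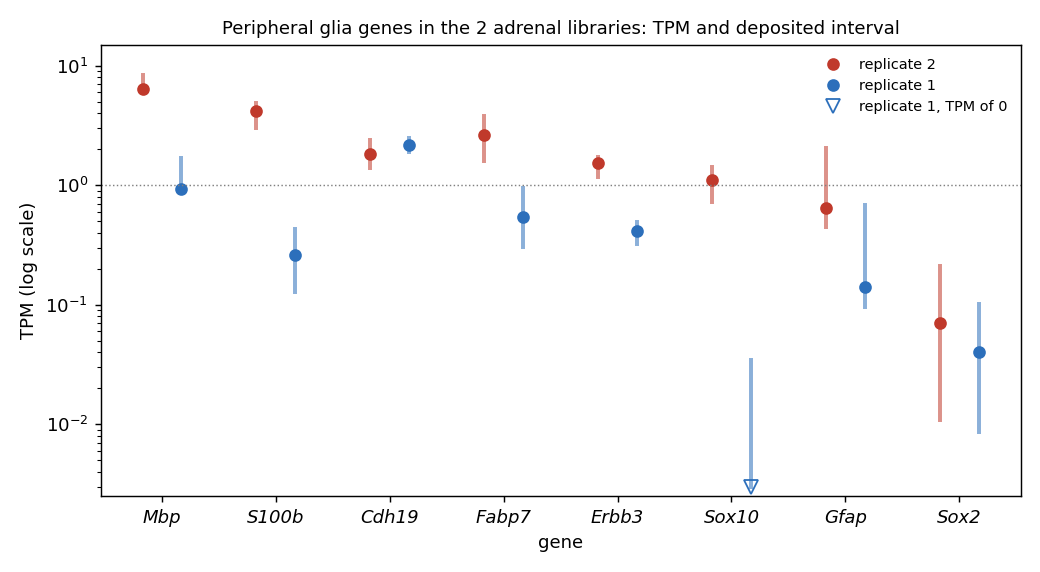
TPM of the 8 peripheral glia genes (log scale) in replicate 2 (red, left of each pair) and replicate 1 (blue). Points are the deposited values and bars the deposited intervals, the dotted line marks 1 TPM and the open triangle marks Sox10, which is listed at 0 in replicate 1. Cdh19 was at 1.84 and 2.18 TPM, while 7 genes had the higher TPM in replicate 2.

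Of the transcription factors, Sox10 specifies neural crest glia and switches on myelin genes. It spans chr15:79154908-79165240 on the minus strand of GRCm38, and its 1 deposited transcript has 2713 bases in 4 exons. It was read 35 times in replicate 2, or 1.11 TPM with a deposited interval of 0.720 to 1.41. No read was assigned in replicate 1, where the deposited interval reached up to 0.0347 TPM. A floor of 3 counts is used for that library, and the exact two-sided Poisson 95% limit of a count of 0 is 3.69. Sox10 was thus read in one library only, with a mean of 0.555 ± 0.785 TPM (SD, n = 2 technical libraries).

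Sox2, a factor of stem and progenitor cells that sustentacular and satellite glia keep, is a gene of 1 exon at chr3:34650405-34652461 on the plus strand. It had 2 counts and 0.07 TPM in replicate 2, against 3 counts and 0.04 TPM in replicate 1. Both libraries were at or under 3 counts, so Sox2 was near the limit of detection and no fold or test is given.

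The neuregulin receptor Erbb3 binds its ligand but has little kinase activity of its own and signals with Erbb2. It spans chr10:128567523-128589652 on the minus strand, with 28 exons in its 1 deposited transcript. Erbb3 had 112 counts and 1.54 TPM (deposited interval 1.18 to 1.71) in replicate 2, against 80 counts and 0.41 TPM (0.319 to 0.495) in replicate 1. The TPM intervals did not overlap, yet per 1000000 nuclear counts the gene stood at 7.61 (exact Poisson 95% interval 6.27 to 9.16) and 6.03 (4.78 to 7.51), which did overlap. Its nuclear-rescaled TPM averaged 2.42 ± 0.109 (SD, n = 2), the smallest spread relative to the mean among the 8 members.

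The calcium-binding protein S100b, the classical histological marker of sustentacular and Schwann cells, lies at chr10:76253853-76261159 on the plus strand with 3 exons. It had 67 counts and 4.15 TPM (3.01 to 4.85) in replicate 2, against 11 counts and 0.26 TPM (0.128 to 0.426) in replicate 1. Replicate 2 was above replicate 1 and the intervals did not overlap. The mean was 2.21 ± 2.75 TPM (SD, n = 2). Rescaled over nuclear genes, S100b stood closer, at 6.73 TPM in replicate 2 and 1.49 TPM in replicate 1. S100b overlaps Dip2a, which lies on the opposite strand, over 1731 bases, but 0 of its 1484 exonic bases lie in an exon of Dip2a.

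Fabp7, the brain-type fatty acid binding protein of radial glia, Schwann cell precursors and satellite glia, spans chr10:57784881-57788450 on the plus strand. It had 20 counts and 2.61 TPM (1.58 to 3.77) in replicate 2, against 11 counts and 0.54 TPM (0.302 to 0.948) in replicate 1. Its transcript of 804 bases is the shortest lead transcript of the set, and its rank of 3 among the members by TPM in both libraries rested on these few counts.

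Myelin basic protein, encoded by Mbp at chr18:82475146-82585637 on the plus strand, compacts the myelin sheath. A longer form of the locus starts far upstream of the myelin transcripts and encodes the golli proteins, which are also made outside myelinating cells. Mbp had 288 counts and 6.33 TPM (6.05 to 8.43) in replicate 2, against 121 counts and 0.93 TPM in replicate 1. The deposited interval of replicate 1, 1.00 to 1.70, lies wholly above its own TPM, and the posterior mean TPM was 7.15 in replicate 2 and 1.33 in replicate 1. Mbp was the highest member in replicate 2 and stood below Cdh19 alone in replicate 1. Among all genes it ranked 9490 by TPM in replicate 2 and 9348 in replicate 1.

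Gfap, the intermediate filament protein of astrocytes and of non-myelinating Schwann and enteric glia, spans chr11:102887336-102900912 on the minus strand. Its 20 counts gave 0.65 TPM in replicate 2 (0.446 to 2.04), against 11 counts and 0.14 TPM in replicate 1 (0.0960 to 0.685). The intervals overlapped. Gfap-203, a transcript of 356 bases with 0 expected counts, took 39.8% of the posterior mean share in replicate 2 and 52.5% in replicate 1. Of the deposited share, Gfap-201 held 93.9% and 63.2%, and Gfap-202 held 6.08% and 36.8%.

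Cdh19, a cadherin that marks Schwann cell precursors and mature Schwann cells, spans chr1:110888326-110977584 on the minus strand. It had 80 counts and 1.84 TPM (1.39 to 2.37) in replicate 2, against 264 counts and 2.18 TPM (1.90 to 2.47) in replicate 1. Per 1000000 nuclear counts, Cdh19 was the only member other than Sox2 with the lower value in replicate 2, at 5.44 (4.31 to 6.77) in replicate 2 against 19.9 (17.6 to 22.5) in replicate 1. Its mean was 2.01 ± 0.240 TPM (SD, n = 2). Its longer transcript, of 12 exons, held 92.2% of the deposited share in replicate 2 and 97.5% in replicate 1.

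The order of the members depended on the library. By TPM it ran Mbp, S100b, Fabp7, Cdh19, Erbb3, Sox10, Gfap and Sox2 in replicate 2, and Cdh19, Mbp, Fabp7, Erbb3, S100b, Gfap, Sox2 and Sox10 in replicate 1. Taken by mean TPM, the order was Mbp, S100b, Cdh19, Fabp7, Erbb3, Sox10, Gfap and Sox2, and of its 7 pairs of neighbours only Mbp above S100b was separated by the deposited intervals in the same direction in both libraries. Fabp7 and Erbb3 did not differ beyond their intervals in either library. The ratio of Mbp to Cdh19 was 3.44 in replicate 2 and 0.427 in replicate 1, and that of S100b to Cdh19 was 2.26 and 0.119.

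Most Mbp reads were assigned to the upstream start. Of 16 deposited Mbp transcripts, 4 start within 224 bases of the first base of the gene and 12 start 79324 to 88116 bases further on, where the myelin transcripts begin. The upstream class held 240 of 288 counts in replicate 2, or 83.3% (exact binomial 95% interval 78.5 to 87.4), and 108 of 121 in replicate 1, or 89.3% (82.3 to 94.2). The downstream class held 48 and 13. In both libraries most counts lay in the upstream class, and the intervals of its share overlap.

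A single transcript, Mbp-205, took nearly all of the upstream class, with 238 expected counts in replicate 2 and 108 in replicate 1. It has 4797 bases in 4 exons, and its last exon has 4384 bases, of which 281 lie in an exon of the downstream class. Of its length, 3955 bases, or 82.4%, lie in no exon of another deposited Mbp transcript. Whether those reads come from unspliced RNA was not tested. Among the downstream transcripts, Mbp-204, Mbp-206 and Mbp-211 had 17.9, 15 and 14.9 expected counts in replicate 2, against 0, 0 and 12.9 in replicate 1. By TPM, which corrects for length, the upstream class held 67.1% and 75.8%.

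**Figure D2:**
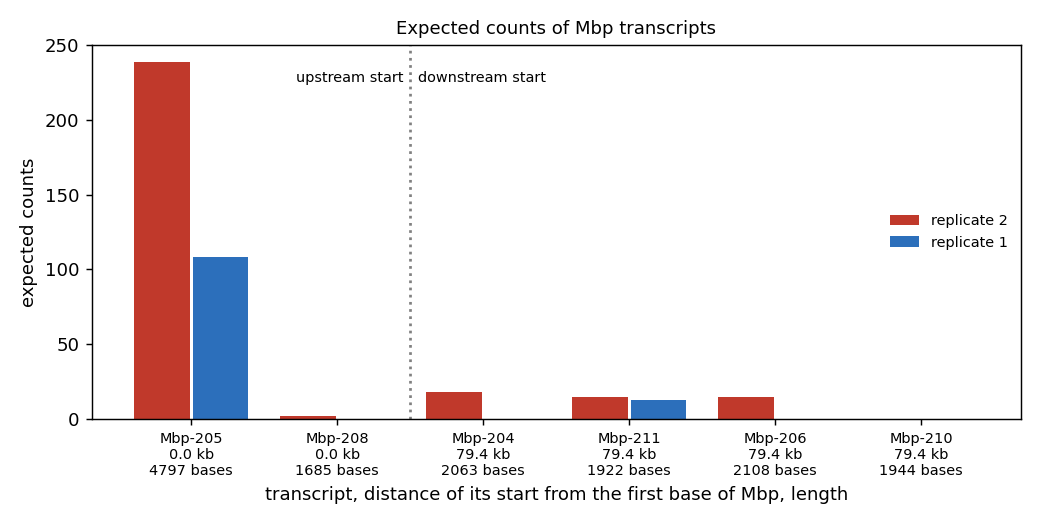
Expected counts of the 6 Mbp transcripts with any count, in replicate 2 (red, left) and replicate 1 (blue); labels give the distance of each start from the first base of Mbp and the transcript length, and the dotted line parts upstream from downstream starts. Mbp-205 stands at 238 and 108 counts, and the downstream transcripts together at 48 and 13.

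The counts of the libraries were then compared gene by gene, with the counts scaled by TMM (trimmed mean of M values) and a two-sided exact binomial test adjusted by Benjamini-Hochberg over the 14358 genes whose counts summed to 20 or more. This test compares the reads of 2 libraries of 1 sample. A gene was called at an adjusted p under 0.05 and a fold of at least 2. Of all tested genes 64.3% were called, 36.5% higher and 27.8% lower in replicate 2. Of the members, 7 were tested, Sox2 falling short of the count minimum, and 3 of them were called, 2 higher and 1 lower. With 7 genes, of which Fabp7 and Gfap had 20 and 11 counts each, no difference from the share of all genes can be read. The median log2 ratio of the 7 was 0.40, also with Sox10 set against the floor of 3 counts, beside 0.10 over all tested genes.

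Set against the floor of 3 counts in replicate 1, Sox10 was 8.64-fold higher in replicate 2. The exact binomial test, run on its 35 and 0 counts, gave an adjusted p of 8.37e-09. The exact two-sided 95% interval used for the other genes allows less, with a lower limit of 6.66-fold and no upper limit. S100b was 4.35-fold higher in replicate 2 (95% exact interval 2.37 to 9.47, adjusted p 1.56e-07 by the exact binomial test), a log2 ratio of 2.12. Cdh19 fell to 0.225 times its level in replicate 1 (0.172 to 0.289, adjusted p 1.46e-37 by the same exact binomial test), a log2 ratio of -2.15. Sox10 and S100b were thus called higher, and Cdh19 lower, in replicate 2 of the same sample. The calls of Sox10 and Cdh19 were lost in every setting that removed the trend of the ratio on GC content, given below.

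Mbp had a fold of 1.76 (1.42 to 2.2, adjusted p 1.10e-07 by the exact binomial test), which missed the fold minimum. Its upstream class had a fold of 1.64 (1.31 to 2.08) and its downstream class one of 2.66 (1.46 to 5.50), with overlapping intervals. Erbb3 had a fold of 1.03 (0.771 to 1.40, adjusted p 0.840 by the exact binomial test). Fabp7 and Gfap, with the same counts, each had a fold of 1.32 (0.615 to 3.11, adjusted p 0.493 by the exact binomial test). With TMM scaling the interval of Erbb3 excludes a fold of 2 in either direction, and those of Fabp7 and Gfap do not. For Erbb3 this depends on the setting. Scaled by totals of all genes its fold was 2.27 (1.69 to 3.07), and without the GC trend (annotated transcripts) 0.648 (0.483 to 0.876).

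Base composition moved with these ratios. Across all tested genes the median log2 ratio was -2.14 for 565 genes under 40% GC, where Cdh19 lies, -1.49 from 40 to 45% (Fabp7), -0.52 from 45 to 50% (S100b), 1.17 from 50 to 55% (Mbp, Erbb3, Gfap) and 3.39 from 55 to 60%. It was 4.99 for 501 genes of at least 60%, where Sox10 lies, or 4.28 with the genes at 0 in replicate 1 set to 3 counts. Of those 501 genes, 21.2% had no read in replicate 1, as Sox10 had none.

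The members were also set beside genes within 1 percentage point of their own GC content. Cdh19, at -2.15, stood near the median of -2.23 of its 206 neighbours. Sox10, at 3.11 against the floor of 3 counts and at 2.74 by its exact lower limit, had a neighbour median of 4.25 with genes at 0 set to 3 counts, and its place cannot be fixed. S100b, at 2.12, was above a neighbour median of -0.31, and Fabp7, at 0.40, above one of -1.62. Mbp, at 0.81, was below a neighbour median of 2.06, and Gfap, at 0.40, below one of 1.87, both also under the lower quartile of their neighbours. Those quartiles, 1.11 and 0.91, lie inside the 95% exact intervals of Mbp (0.51 to 1.14) and Gfap (-0.70 to 1.64). The place of Mbp also rests on the GC content of all its annotated transcripts. The transcripts that held its counts have 51.7% GC, where the fitted trend was 0.83. Erbb3, at 0.05, was below a median of 0.66 but inside the quartiles of 0.03 and 1.40.

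**Figure D3:**
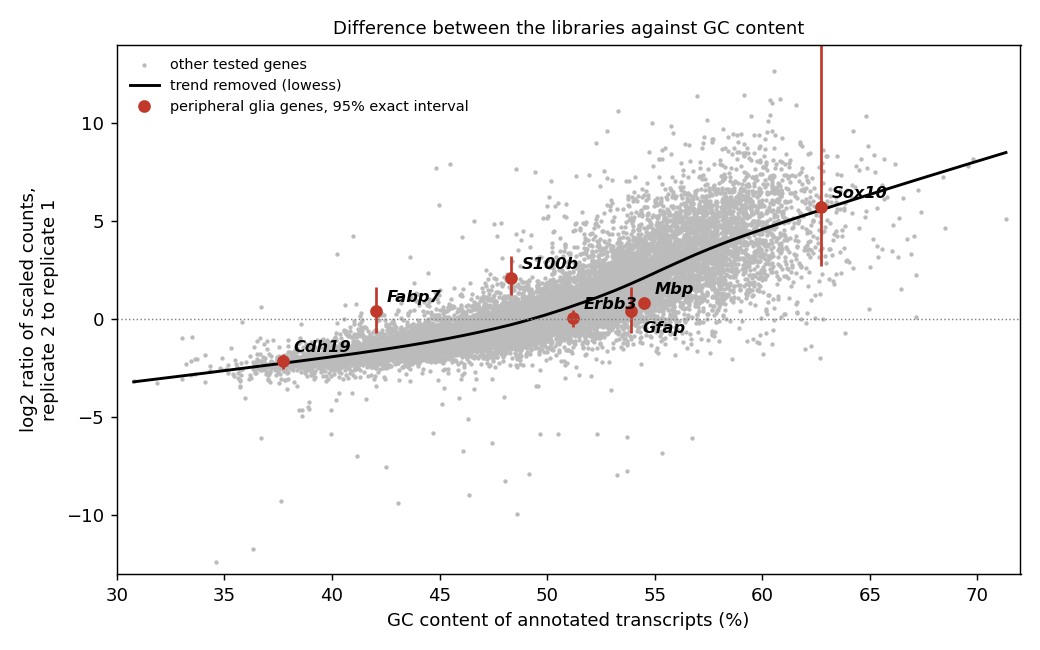
Log2 ratio of scaled counts, replicate 2 to replicate 1, against the GC content of annotated transcripts in percent, for all tested genes (grey), with the lowess trend (black) and 7 peripheral glia genes (red) with 95% exact intervals; that of Sox10 has no upper limit, and its point is set by a prior count of 0.5. Cdh19 lies near the low end of the trend, S100b and Fabp7 lie above the trend, and Mbp, Gfap and, less far, Erbb3 lie below it. With the GC content of the transcripts that held the counts, Mbp came to -0.013 from the trend.

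With the trend of the ratio on GC content taken out, 13.5% of all genes were called higher and 12.5% lower, and the calls of the members changed. S100b stayed higher at 2.40, and Fabp7 became higher at 2.00 (95% exact interval 0.89 to 3.23). Mbp at -1.28 (-1.59 to -0.96) and Gfap at -1.42 (-2.52 to -0.18) became lower. Sox10 came to 0.14 with the prior count, with a lower limit of -2.84 and no upper limit, and Cdh19 to 0.09 (-0.29 to 0.45), and neither was called. Erbb3 came to -0.63 (-1.05 to -0.19) and was not called. With the GC content taken from the transcripts that held the counts, Mbp came to -0.013 and was not called. Mbp-205 has 51.0% GC, where the annotated transcripts of Mbp average 54.5%. With the trend on transcript length taken out in its place, Fabp7 turned to a lower call at -1.16 and Gfap came to -0.022. That call of Fabp7 had an adjusted p of 0.0475 by the exact binomial test, and its 95% exact interval of -2.26 to 0.08 includes 0.

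S100b was thus called higher in all 10 settings, the TMM one included, at log2 ratios of 1.07 to 3.26, Sox10 in 7 and Cdh19 lower in 7. Neither Sox10 nor Cdh19 was called in any of the 3 settings that removed the GC trend. Of all genes, 36.5% were called higher with TMM, 35.7% with DESeq2 size factors, 40.4% with nuclear totals, 54.2% with totals of all genes, 29.3% with no count minimum and 46.0% with no fold minimum. Without the GC trend the share was 13.5%, or 11.3% with counted transcripts, and it was 31.0% without the length trend and 12.3% without both. Lower calls made up, in the same order, 27.8%, 29.1%, 20.8%, 3.98%, 20.3% and 41.9%, then 12.5%, 10.8%, 34.4% and 12.7%. The constant call of S100b was thus made against backgrounds of 11.3 to 54.2%. S100b rests on the same 67 and 11 counts in every setting, and lifting the fold minimum could not undo its call. Without the length trend its fold was 2.09 (95% exact interval 1.14 to 4.56), close to the fold minimum of 2. Dip2a, the gene on the opposite strand, had a log2 ratio of 0.84, and -0.88 without the GC trend. Of 7 adipocyte markers, led in TPM by Fabp4, which was not called, and Cfd, which was, 3 were called higher, beside 36.5% of all genes. Their nuclear-rescaled TPM summed to 5309 in replicate 2 and 2661 in replicate 1. Without the GC trend 5 of 7 were called higher, beside 13.5% of all genes, and the list's median was 1.36. Their part in the ratio of S100b, which fat cells also make, was not tested. Skeletal muscle markers, led by Ckm and Acta1, with 5 of 5 called higher, and 3 of 5 without the GC trend, summed to 523 nuclear-rescaled TPM in replicate 2 and 63.3 in replicate 1. Chromaffin markers, the neighbours of sustentacular cells, had 5 of 8 called higher and 0 lower, and 3 higher and 3 lower without the GC trend. Cortex markers had 2 of 6 higher and 1 lower, and 1 higher without the GC trend. The part of these cells in the ratios of Sox10, S100b and Cdh19 was not tested.

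**Figure D4:**
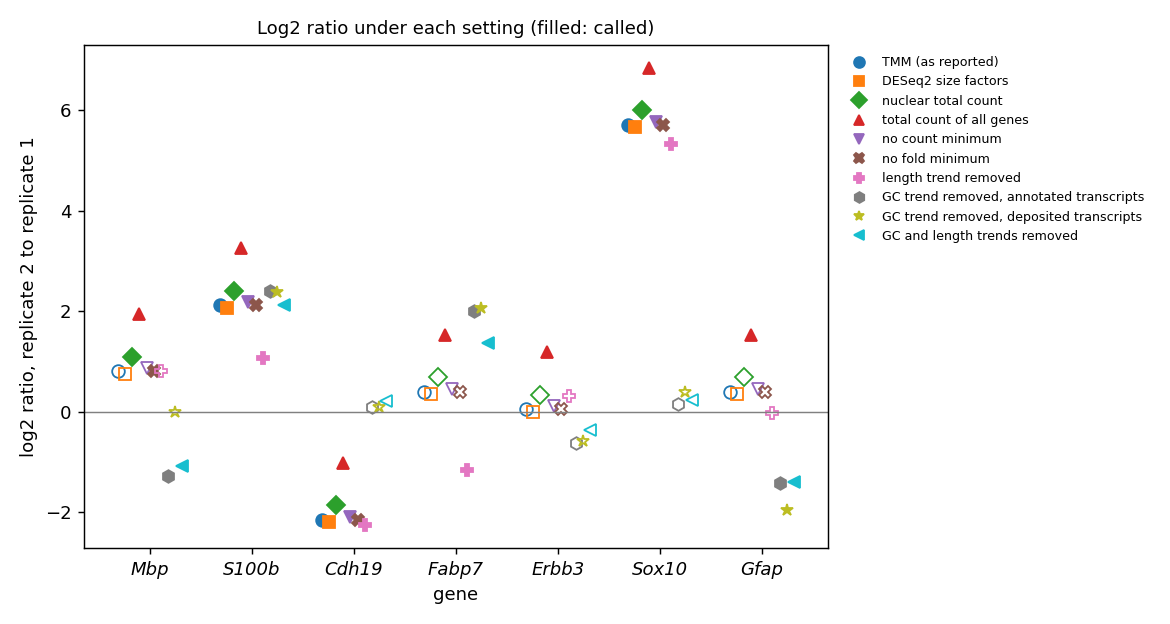
Log2 ratio of 7 peripheral glia genes, replicate 2 to replicate 1, under the 10 settings; filled symbols were called at an adjusted p under 0.05 and, except where no fold minimum was set, a fold of at least 2. S100b is filled and above 0 throughout, Mbp, Erbb3, Fabp7 and Gfap lie on both sides of 0, and Sox10 and Cdh19 are open near 0 where the GC trend was removed.

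A further 55 genes linked to peripheral glia, in 4 lists, were set beside the 8 members, and not all of them are particular to these cells. Of these, 42 were tested, and 12 were called higher, 11 lower and 19 not called, with a median log2 ratio of -0.13, where 36.5% of all genes were called higher and 27.8% lower. Without the GC trend 0 were higher and 12 lower, with a median of -0.54, where 13.5% of all genes were higher and 12.5% lower. Of the 11 lower calls, 4 held there, those of Nab1, Sox9, Cldn11 and Kcna1, and of the 12 higher calls 0 held. With the GC content of the counted transcripts 3 lower calls held, since that of Nab1 was lost. At an adjusted p under 0.05 with no fold minimum, 15 of the 42 were higher and 19 lower before the trend was removed.

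Among 10 glial transcription factors, 6 were tested, with 1 higher and 3 lower, beside 36.5% and 27.8% of all genes. Nab1, a co-regulator of the myelin factor Egr2, had 43.6 TPM in replicate 2 and 44.4 TPM in replicate 1, a log2 ratio of -1.80 that became -1.23 without the GC trend, or -0.72 and not called with the GC content of the counted transcripts. Sox9, which acts beside Sox10 in crest development, had 24 and 41 counts, or 0.49 and 0.31 TPM. It kept a lower call at -1.19 and -1.20. Zeb2, a repressor needed for myelination, had 29.8 and 19.3 TPM, Hes1, a Notch target, 13.9 and 5.98 TPM, and Pou3f2 0 and 1 count.

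Among 12 genes of neuregulin and other glial signalling, 11 were tested, with 6 higher and 3 lower at a median of 2.33. Of all genes, 36.5% were higher and 27.8% lower, at a median of 0.10. Without the GC trend 0 of the 11 were called, at a median of -0.10, beside 13.5% of all genes higher and 12.5% lower. With counted transcripts Notch1 alone was called, lower at -1.05, beside 10.8% of all genes lower. Ednrb, the endothelin receptor of crest cells, led with 17.04 and 14.3 TPM, before Lpar1, a lysophosphatidic acid receptor, with 6.08 and 3.52 TPM, and Notch1 with 7.15 and 0.38 TPM. Nrg1, the ligand of Erbb3, had 6 and 2 counts. Erbb2, the partner of Erbb3, was named after its values were seen: it had 149 and 6 counts, a log2 ratio of 4.09 that came to 0.36 without the GC trend. The ligand was thus under the floor of 3 counts in replicate 1 alone.

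Among 15 genes of peripheral myelin and its sheath, 9 were tested, with 3 higher and 2 lower, beside 36.5% and 27.8% of all genes. Pmp22, a protein of compact myelin that many other tissues make, had 108 and 43.3 TPM, Cnp, an enzyme of myelin cytoplasm, 23.7 and 1.67 TPM, and Mal, a membrane raft protein, 6.59 and 3.29 TPM. Cldn11, the tight-junction claudin of oligodendrocyte myelin, had 86 and 190 counts, or 4.1 and 3.4 TPM. It kept a lower call at -1.57 and -2.12. Ugt8a, the enzyme that makes the galactolipid of myelin, and Gjb1, a gap junction protein named after its values were seen, had 0 counts in both libraries. The list held 3373 counts in replicate 2 and 3245 in replicate 1. Its summed TPM was 157 and 55.2, and the order turned with TPM rescaled over nuclear genes, at 254 and 315.

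Among 18 genes of adhesion, matrix and cytoskeleton in Schwann and satellite cells, 16 were tested. Of these, 2 were higher and 3 lower, beside 36.5% and 27.8% of all genes. The list was led by Vim, Sparcl1 and Cdh2, which many stromal and endocrine cells make, at 85.9, 46.4 and 34.8 TPM in replicate 2, against 15.5, 14.02 and 16.9 TPM in replicate 1. None of those 3 was called, with or without the GC trend of annotated transcripts, while with counted transcripts Vim was lower at -1.61. Kcna1, an axonal potassium channel, had 70 and 140 counts, or 0.64 and 0.48 TPM, and kept a lower call at -1.43 and -3.02. With counted transcripts Kcna1 was lower at -1.69. Sostdc1 was lowest, with 5 and 11 counts.

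**Figure D5:**
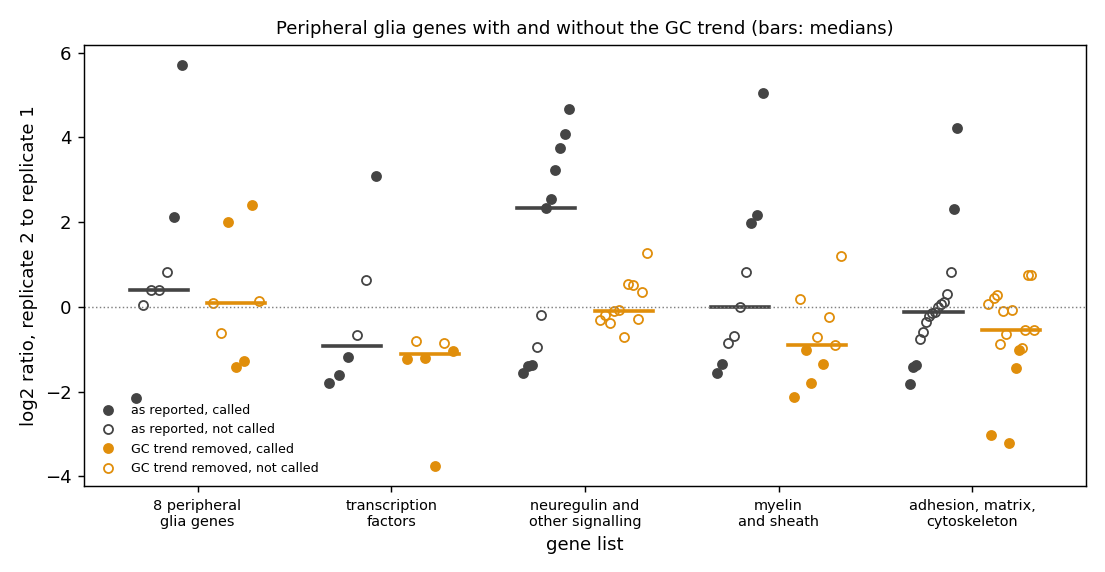
Log2 ratio, replicate 2 to replicate 1, of the tested genes of the 8-gene set and of 4 further lists of peripheral glia genes, as reported (black) and with the GC trend removed (orange); filled points were called and bars are medians. The signalling list has a median of 2.33 as reported and of -0.10 without the trend, where none of its points is filled.

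Markers of other glia and of related crest cells were read in part. Of 8 central glia markers, Olig2, Mog, Mobp and Opalin had 0 counts in both libraries. Aqp4 had 0.16 TPM in each, and Aldh1l1, a folate enzyme of astrocytes and liver, had 113 TPM in replicate 2 and 3.99 TPM in replicate 1, nearly all of the list's sums of 113 and 4.17 TPM. Of 6 melanocyte markers, Tyr, Tyrp1 and Mlana had 0 counts in both, Mitf had 3.62 and 2.75 TPM and Pmel 0.37 and 0 TPM, in sums of 4.11 and 2.78 TPM, or 6.67 and 15.9 when rescaled over nuclear genes. Neuron markers summed to 102 TPM in replicate 2 and 23.8 TPM in replicate 1, or 166 and 136 when rescaled over nuclear genes, led by Uchl1 with 63.6 and 1.87 TPM and Snap25 with 24.1 and 18.5 TPM, genes that chromaffin cells share. Lymphocyte markers, led by Ptprc and Cd3g, summed to 5.90 and 3.42 TPM, but to 9.57 and 19.5 when rescaled over nuclear genes. Ptprc, the one tested, was called lower at -1.75, and came to 0.16 and was not called without the GC trend. For the low counts of Gfap, Fabp7 and Sox2, the part of any of these cell types was not tested.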

How the data were processed

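The labels give 1 biological sample in 2 technical replicates, which form 1 group. Expected counts in the deposited gene and transcript tables are estimated reads per feature, TPM and FPKM are named so per the file headers, and the posterior mean TPM with its interval bounds was treated as a deposited score. The interval's level is not given in the headers. In the transcript tables the authors give isoform shares in percent. Per the notes deposited with the tables, they rest on mm10 and GENCODE M4. Which aligner, counting program and strand setting was used is not given in the sources used here. No column belonged to samples outside the series (0 columns).

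Expected counts were rounded. Library sizes were scaled by TMM (edgeR 4.0.16, R 4.3.3). An exact binomial test (scipy 1.17.1) conditional on the summed count was used. The quasi-likelihood test of edgeR has no residual degrees of freedom with 1 library on each side. The binomial test was tried on simulated Poisson counts without added spread or GC trend. That trial does not cover the GC trend of these libraries. Log2 ratios put replicate 2 over replicate 1 (prior count 0.5), and intervals cover counting error only, since reads are not independent molecules. GC content, lengths and coordinates came from GENCODE M21 on GRCm38, the same assembly, with 97.9% of Ensembl transcripts found there. In the trend removal a lowess of span 0.3 was subtracted (statsmodels 0.14.6). Nuclear copies of mitochondrial genes were 15 genes matching at 90% identity over 50% of their length (BLAST 2.17.0), and no member had a near-identical copy at 95% identity. Settings tried were DESeq2 1.42.0 size factors, nuclear or all-gene totals, no count or fold minimum, and removal of the GC trend, the length trend or both.

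The members and lists were chosen with earlier results of these data known. All 8 members were named, with the 3 highest and the lowest gene by mean TPM in each glia list and those called alike with and without the GC trend, and the 2 highest in each marker list. With 2 libraries, likeness of pattern across samples is not defined and was not computed. Protein sequences were not used here.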

Additional observations from a re-analysis of the deposited data

How the results depend on the processing

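The median log2 ratio of all tested genes was 0.10 under TMM, 0.39 with nuclear totals and 1.24 with totals of all genes, and ratios are to be read against it. With totals of all genes 6 of 7 members and 21 of 42 further glia genes were higher, beside 54.2% of all genes. There 0 further glia genes were lower, beside 3.98% of all genes. With no fold minimum 19 of 42 further glia genes were lower, beside 41.9% of all genes. With the GC trend (annotated), the length trend or both removed, 2 members were lower, beside 12.5%, 34.4% and 12.7% of all genes. Further glia genes called higher numbered 0 with the GC trend (annotated or counted transcripts) or both trends removed, beside 13.5%, 11.3% and 12.3% of all genes. Signs reversed for Mbp at -1.28 (annotated), -0.013 (counted transcripts) and -1.08 (both trends), for Erbb3 at -0.0074 (DESeq2), -0.63, -0.59 and -0.37, for Fabp7 at -1.16 (length), for Gfap at -1.42, -1.95, -1.40 and -0.022 (length), and for Cdh19 at 0.093, 0.085 and 0.21. The cause was not tested. Other ratios kept their direction in 48 results, 9 of them newly called and 3, all of Sox10, no longer called. The mean summed TPM was 11.4, 27.7 when rescaled over nuclear genes and 4.5 to 18.3 without replicate 1 or 2. Members detected in both libraries numbered 1, 6 at 0.1 TPM and 5 on the nuclear scale, and 1 to 6 without one replicate. The upstream share of Mbp averaged 71.4%, 63.3% by posterior mean and 86.3% by expected counts, an alternative chosen after seeing the data, and 67.1 to 75.8% without one replicate. No paired analysis was possible because the libraries form 1 group. Sox2, Fabp7 and Gfap, with 2 to 20 counts a library, allow no finer statement.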
